A study of Arabidopsis thaliana with 27 samples.

Results

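The small RNAs of uvr8-6 hypocotyls were compared with those of wild-type hypocotyls after the higher of the 2 UV-B doses, 30000 µmol per m2. The comparison rests on 6 of the 27 libraries of the series, chosen by their labels alone: 3 libraries of uvr8-6 and 3 of wild type. uvr8-6 is a mutant line of Arabidopsis thaliana in the UV-B photoreceptor gene UVR8, and the wild type is the accession Columbia-0. The other genotype of the series is xpf-3, a mutant in the DNA repair nuclease gene XPF, and every genotype was also sampled in the dark and after 3000 µmol per m2. All groups had the same growth conditions: seeds on filter paper wetted with 0.5x MS medium and 100 µM of the gibberellin GA4, 2.5 days of darkness, and then UV-B or continued darkness. The exposure lasted 45 min for 30000 µmol per m2 and 5 min for 3000 µmol per m2. Hypocotyls, the elongated and still pale stems of these dark-grown seedlings, were cut off 6 h after the exposure according to the protocol, while the sample titles give 2 days. Small RNA counts hold no value for the mRNAs of UVR8 or XPF, so nothing in them tests the labelled genotypes. The labels do not say whether the 3 replicates of a group came from separate cultures, and p-values therefore measure the spread between these libraries, which may be technical.

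UVR8 is a protein that absorbs UV-B through its own tryptophans, splits from a pair into single units and binds the ubiquitin ligase COP1, which switches on genes for flavonoid pigments, DNA repair and photomorphogenesis. In a dark-grown hypocotyl this is a route by which UV-B can slow elongation and start acclimation. Plant miRNAs are cut by DCL1 from hairpin precursors of MIR genes and guide AGO1 to nearly complementary mRNAs, many of which encode transcription factors of growth, hormone response and nutrient supply. Fragments of tRNA, rRNA, snRNA and snoRNA are cloned in the same libraries.

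Each value below is a read count per annotated locus, and for a miRNA it counts the whole hairpin locus, so both arms of the hairpin are together. The uvr8-6 libraries held 1970871, 1122410 and 1261535 counts in all and 34142, 20519 and 42180 counts at miRNA loci, and the wild-type libraries held 827130, 1390434 and 842617 counts in all and 26593, 52915 and 15790 at miRNA loci. Replicates differed by far more than counting noise (chi-square per degree of freedom of at least 12.5 for every pair of replicates), so no library was counted as a copy of another. Wild-type replicate III was the library that agreed least with its replicates at miRNA loci (r = 0.784 of log2(CPM + 1) across 101 loci, against 0.852 to 0.906 for the other 5 libraries). Levels of miRNAs are CPM of all miRNA counts, scaled by TMM, and so are relative to the other miRNAs of a library. In excised tissue, fewer cells of a type and less RNA per cell cannot be told apart.

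The mature miRNAs whose loci carry the comparison are shown with the seed (bases 2 to 8) in capitals, as annotated by RefSeq on TAIR10.1. They were chosen to show which differing loci make the same molecule: several loci with different values encode an identical mature strand, which short reads cannot always assign to 1 locus.
miR156b-5p: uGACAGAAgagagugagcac
miR166a-3p: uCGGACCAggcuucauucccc
miR167a-5p: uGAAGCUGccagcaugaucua
miR167d: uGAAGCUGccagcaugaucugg
miR169c: cAGCCAAGgaugacuugccgg
miR169m: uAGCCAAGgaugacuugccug
miR390a-5p: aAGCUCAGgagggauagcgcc
miR396a-5p: uUCCACAGcuuucuugaacug
miR396b-5p: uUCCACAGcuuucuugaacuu
miR408-3p: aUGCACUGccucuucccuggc
miR472-3p: uUUUUCCUacuccgcccauacc
miR822-5p: uGCGGGAAgcauuugcacaug
miR2939: uAACGCACaacacuaagccau
miR8175: gAUCCCCGgcaacggcgcca
The mature miR156 of MIR156B is also made by MIR156C and 4 other tested loci. MIR166A and MIR166B encode the same miR166, MIR167A and MIR167B the same miR167, MIR390A and MIR390B the same miR390, and MIR169M shares its strand with MIR169H, MIR169N and 4 other tested loci. MIR169C shares its strand with MIR169B. miR167a and miR167d have the same seed and differ at their 3′ ends, as do miR396a and miR396b.

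uvr8-6 and wild type differed at 23 of the 101 miRNA loci tested, which is 22.8% of them, 13 loci (12.9%) with higher and 10 (9.90%) with lower relative levels in uvr8-6 (edgeR quasi-likelihood test, Benjamini-Hochberg adjusted p under 0.05). The libraries of the 2 genotypes did not overlap at 21 of the 23 loci, against 38 of all 101 loci (37.6%). The loci that rose included MIR472A, MIR2939, MIR167A, MIR167B, both MIR390 loci, MIR156B, MIR156C and MIR408. Those that fell included MIR822A, MIR396A, MIR396B, MIR169M, MIR166A, MIR399B and MIR858A. At an unadjusted p under 0.05, 37 loci differed. The median log2 difference over the 101 loci was -0.13, and 44 of them lay above 0. Without wild-type replicate III the number of called loci was 15, 8 higher and 7 lower.

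**Figure D1:**
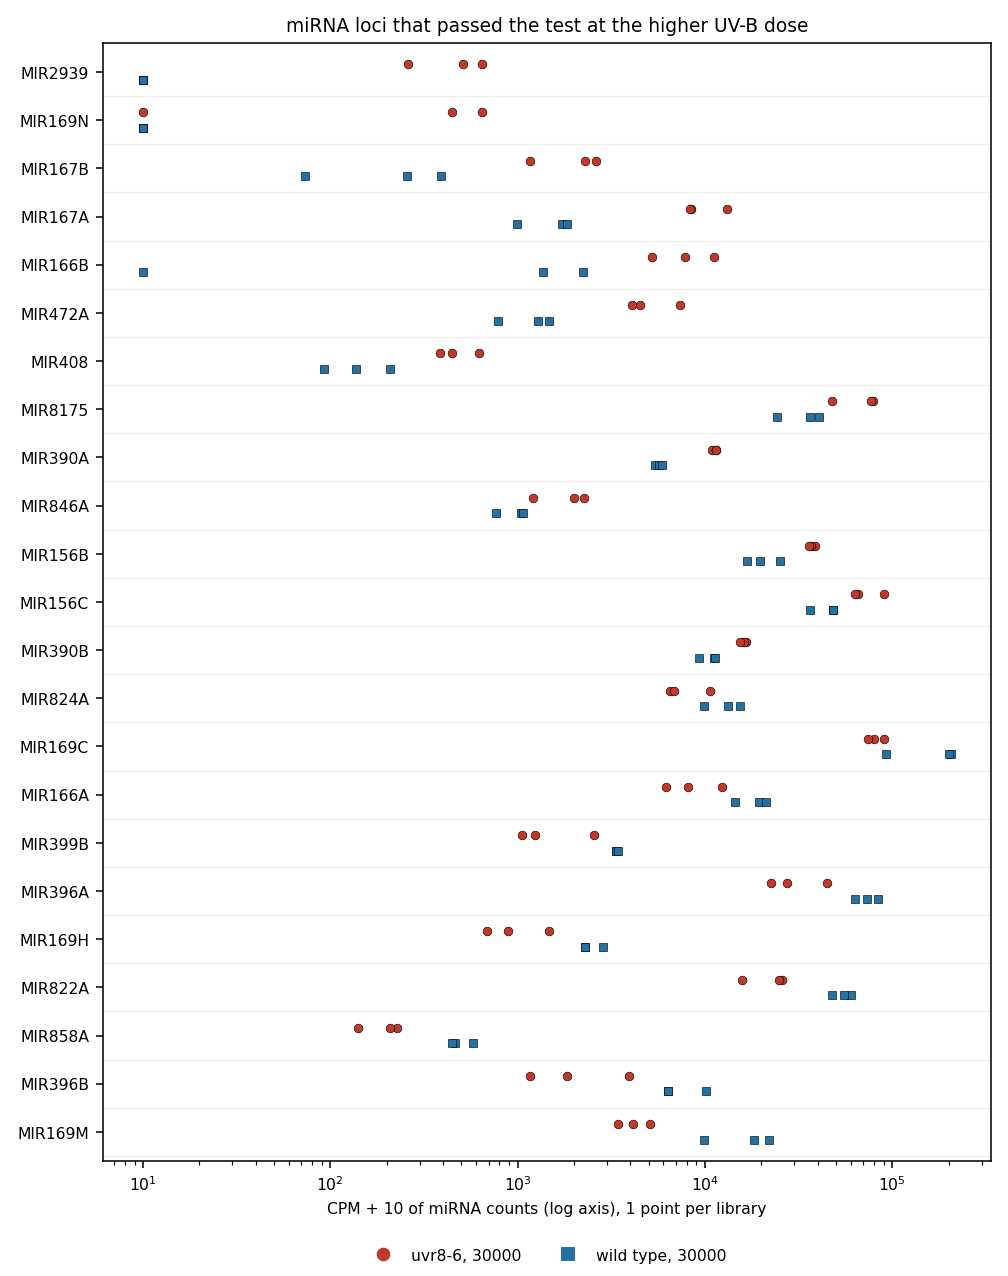
CPM + 10 of miRNA counts on a log axis for the 23 miRNA loci that passed the test at 30000 µmol per m2, 1 row per locus in order of the log2 difference, with the 3 uvr8-6 libraries as circles above the 3 wild-type libraries as squares. The genotypes do not overlap at 21 loci; the exceptions are MIR169N, which is at 0 in 1 uvr8-6 library and in all 3 wild-type libraries, and MIR824A.

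MIR472A (AT1G12294) had the smallest adjusted p of the miRNA loci. miR472 guides the cleavage of mRNAs for NBS-LRR resistance proteins and starts secondary siRNAs from them, and its hairpin lies within the protein-coding gene AT1G12290 on the same strand. MIR472A had 4512, 7327 and 4086 CPM in uvr8-6 against 779.7, 1269 and 1452 CPM in wild type. The lowest uvr8-6 library was above the highest wild-type library by more than 2-fold, and the fitted difference was log2 2.19 ± 0.32 (SE), adjusted p = 0.000102, a ratio of 4.55. MIR2939 (AT5G07065) had 8, 16 and 23 counts in uvr8-6 and 0 counts in each wild-type library. Taken against the limit of 3 counts over the 3 wild-type libraries, it was at least 14.5-fold higher in uvr8-6 (adjusted p = 0.00205). The same locus was at 0 in all 9 xpf-3 libraries and in all but 1 of the 9 wild-type libraries of the series, where it had 1 count, while every uvr8-6 library held 4 to 23 counts.

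MIR167A and MIR167B both rose. miR167 represses ARF6 and ARF8, auxin response factors that promote hypocotyl elongation and flower maturation. MIR167A (AT3G22886) had 8371, 8322 and 13067 CPM in uvr8-6 against 985, 1722 and 1831 CPM in wild type, a difference of log2 2.71 ± 0.60 (SE), adjusted p = 0.00209. MIR167B (AT3G63375) showed the same direction at a lower level, with 2272, 1155 and 2600.2 CPM in uvr8-6 and 246, 381 and 63.1 CPM in wild type (log2 3.00 ± 0.80 (SE), adjusted p = 0.0081). No uvr8-6 library of either locus fell within the wild-type range. The precursor MIR167D (AT1G31173), whose mature strand ends differently, had 3609.9, 1195 and 4479 CPM in uvr8-6 and 5786, 5439 and 4294 CPM in wild type, overlapped between the genotypes and did not pass the test (log2 -0.73 ± 0.32 (SE), adjusted p = 0.104). MIR167C, at 31.1 to 119 CPM in uvr8-6 and 41.0 to 189 CPM in wild type, did not pass either (adjusted p = 0.563).

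**Figure D2:**
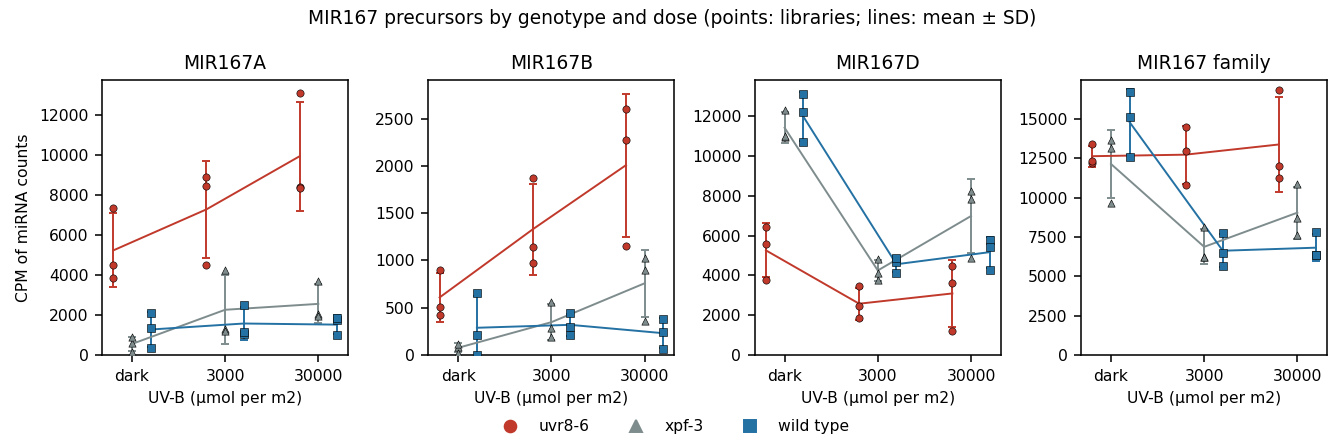
CPM of miRNA counts for MIR167A, MIR167B, MIR167D and the summed MIR167 family in the dark and after 3000 and 30000 µmol per m2, for uvr8-6 (circles), xpf-3 (triangles) and wild type (squares); points are libraries and lines give the mean with SD of 3 libraries. In uvr8-6 the family stays between 10785 and 16850.2 CPM over the 9 libraries, while in wild type it is 12563 to 16715 CPM in the dark and 5668 to 7799 CPM after UV-B.

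Loci of the phase-change miRNA miR156 and of miR390 rose by smaller factors. miR156 holds back SPL transcription factors and keeps plants juvenile. MIR156B (AT4G30972) had 38527, 37032 and 36032 CPM in uvr8-6 and 19574, 25292 and 16733 CPM in wild type (log2 0.85 ± 0.15 (SE), adjusted p = 0.000411), and MIR156C (AT4G31877) had 90870.4, 65543 and 63586 CPM in uvr8-6 and 36317, 48101 and 48495 CPM in wild type (log2 0.73 ± 0.17 (SE), adjusted p = 0.00345). Neither locus overlapped between genotypes. The other 4 tested MIR156 loci had log2 differences of 0.19 to 0.70 and did not pass the test. miR390 with AGO7 starts the tasiRNAs that act on ARF3 and ARF4. MIR390A (AT2G38325) had 10923, 11388 and 11384 CPM in uvr8-6 and 5417, 5675 and 5872 CPM in wild type (log2 0.99 ± 0.22 (SE), adjusted p = 0.00241), with the replicates of each genotype close together. MIR390B (AT5G58465) had 16556, 16246 and 15361 CPM in uvr8-6 and 11121, 9301 and 11366 CPM in wild type (log2 0.60 ± 0.17 (SE), adjusted p = 0.0118).

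The remaining called loci that rose were MIR8175, MIR846A, MIR408, MIR166B and MIR169N. MIR408 (AT2G47015), a copper-responsive miRNA against laccase and plantacyanin mRNAs, had 373, 438 and 612 CPM in uvr8-6 against 82.1, 199 and 126 CPM in wild type (log2 1.72 ± 0.55 (SE), adjusted p = 0.0257). Its highest wild-type library lay below its lowest uvr8-6 library, but the counts are few, 12, 11 and 28 in uvr8-6 and 2, 11 and 2 in wild type, and the call was lost in 5 of 12 alternatives. MIR846A (AT1G61226), which targets jacalin lectin mRNAs, had 2241, 1195 and 1988 CPM in uvr8-6 and 1026, 1052 and 758 CPM in wild type (log2 0.92 ± 0.29 (SE), adjusted p = 0.0257). MIR8175 (AT2G05455), a precursor with high counts, had 79200.4, 47545 and 76980.0 CPM in uvr8-6 and 24375, 40631 and 36560.4 CPM in wild type, a ratio of 2.01 (adjusted p = 0.0321). Without its terminal CCA, the annotated mature strand of MIR8175 is 17 bases long and matches the 3′ end of 22 tRNA-Asp genes in TAIR10.1, so fragments of mature tRNA-Asp and this miRNA cannot be told apart by sequence.

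The loci that fell were led by MIR822A (AT5G03552), a young miRNA locus whose targets encode DC1-domain proteins. MIR822A had 25798, 15848 and 24954 CPM in uvr8-6 against 60405, 47412 and 55188 CPM in wild type (log2 -1.29 ± 0.21 (SE), adjusted p = 0.000207). The highest uvr8-6 library was well below the lowest wild-type library. miR396 acts on the growth-regulating factors (GRFs) that drive cell proliferation. MIR396A (AT2G10606) had 44657, 22578 and 27576 CPM in uvr8-6 and 83919, 73429.7 and 63523 CPM in wild type (log2 -1.22 ± 0.25 (SE), adjusted p = 0.00136), and MIR396B (AT5G35407) had 3921, 1155 and 1814 CPM in uvr8-6 and 10095, 6364 and 6378 CPM in wild type (log2 -1.72 ± 0.34 (SE), adjusted p = 0.000806). Neither overlapped between genotypes, and in uvr8-6 replicate I was the highest library of both. MIR399B (AT1G63005), which represses the phosphate-homeostasis gene PHO2, had 2552, 1234 and 1049 CPM in uvr8-6 and 3324, 3336 and 3409.8 CPM in wild type (log2 -1.06 ± 0.33 (SE), adjusted p = 0.0257). MIR858A (AT1G71002) targets MYB transcription factors of flavonol synthesis, a pathway under UVR8 control, and had 218, 199 and 131 CPM in uvr8-6 and 451, 435 and 568 CPM in wild type (log2 -1.40 ± 0.47 (SE), adjusted p = 0.0323). The genotypes did not overlap at this low locus, and its call was kept in 4 of 12 alternatives. MIR824A (AT4G24415), the regulator of AGL16 in the stomatal lineage, had 10581, 6491 and 6861 CPM in uvr8-6 and 15348, 9936 and 13197 CPM in wild type, which overlap, and passed the test at log2 -0.68 ± 0.23 (SE), adjusted p = 0.0364.

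In 2 families, loci that encode the same mature strand differed in opposite directions. miR166 limits HD-ZIP III factors of organ polarity and vascular tissue. MIR166A (AT2G46685) fell, with 12292, 6212 and 8128 CPM in uvr8-6 and 19492, 14414 and 21279.5 CPM in wild type (log2 -1.05 ± 0.24 (SE), adjusted p = 0.00241), whereas MIR166B (AT3G61897) rose, with 7842, 11109.7 and 5179 CPM in uvr8-6 and 1354, 2212 and 0 CPM in wild type (log2 2.62 ± 0.64 (SE), adjusted p = 0.00443). Wild-type replicate III held no MIR166B count, and MIR166A and MIR166B did not overlap between genotypes. miR169 acts on NF-YA subunits of a CCAAT-binding factor linked to drought and nutrient responses. MIR169M (AT3G26818) had 3423, 4141 and 5091 CPM in uvr8-6 and 18384, 9899 and 21848 CPM in wild type (log2 -1.98 ± 0.33 (SE), adjusted p = 0.000213), and MIR169H (AT1G19371) had 1463, 677 and 874 CPM in uvr8-6 and 2831, 2266 and 2273 CPM in wild type (log2 -1.28 ± 0.45 (SE), adjusted p = 0.039). MIR169N (AT3G26819), of the same mature strand, had 0, 11 and 29 counts in uvr8-6 and 0 counts in all 3 wild-type libraries. This was at least 12.3-fold higher over the group, although 1 uvr8-6 library does not show it (adjusted p = 0.0257). MIR169C (AT5G39635), also with high counts, had 79916, 74702 and 90789.7 CPM in uvr8-6 and 205549.5, 93047 and 201366 CPM in wild type (log2 -1.03 ± 0.26 (SE), adjusted p = 0.00641), with wild-type replicate II close to the uvr8-6 range. MIR169B, of the same mature strand as MIR169C, averaged 52471 ± 12837 CPM in uvr8-6 and 45050 ± 17927 CPM in wild type (SD). It did not pass (log2 0.22 ± 0.39 (SE), adjusted p = 0.727). How reads that match several loci were assigned is not given in the sources used here, so values of single loci within the MIR166 and MIR169 families are uncertain.

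Of the 23 called miRNA loci, 12 passed in each of the 12 alternatives run: MIR472A, MIR2939, MIR167A, MIR156B, MIR156C, both MIR390 loci, MIR822A, both MIR396 loci, MIR166A and MIR169M. MIR166B lost its call with only the groups compared (adjusted p = 0.075). MIR167B lost it without wild-type replicate III (adjusted p = 0.05004), and MIR399B without uvr8-6 replicate II or III (highest adjusted p over its alternatives 0.118). Without wild-type replicate I or III, the calls of MIR169C, MIR169H, MIR169N, MIR408, MIR8175 and MIR846A were lost, with highest adjusted p over their alternatives of 0.105, 0.16, 0.111, 0.12, 0.175 and 0.119. Leaving out any uvr8-6 library or wild-type replicate III ended the call of MIR858A (highest adjusted p 0.185), and leaving out wild-type replicate I or uvr8-6 replicate II or III that of MIR824A (0.16).

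Summed by family, where this assignment does not matter within a family, 24 of 55 families differed (43.6%), 10 (18.2%) higher and 14 (25.5%) lower in uvr8-6, and 20 of the 24 did not overlap, against 23 of 55 (41.8%) over all families. The MIR822 family had the smallest adjusted p, at 19598 ± 1672 CPM in uvr8-6 and 52335 ± 3777 CPM in wild type (SD, n = 3 each; log2 -1.41 ± 0.16 (SE), adjusted p = 2.25e-07). MIR396 averaged 29750.1 ± 7495 CPM in uvr8-6 and 78184 ± 7799 CPM in wild type (log2 -1.39 ± 0.22 (SE), adjusted p = 3.03e-05). MIR472 rose by 2.13 ± 0.35 on the log2 scale, MIR2939 passed with its single locus, and MIR167 rose by 0.97 ± 0.19 (adjusted p = 0.000444), at 13386 ± 3025 CPM in uvr8-6 and 6822 ± 846 CPM in wild type. The summed MIR166 family fell by 0.50 ± 0.17 and the summed MIR169 family by 0.56 ± 0.22 on the log2 scale (adjusted p = 0.0255 and 0.0436). MIR166 kept its call in 6 of 13 alternatives and MIR169 in 3, and MIR169 overlapped between genotypes. MIR390 rose by 0.67 ± 0.17, MIR156 by 0.49 ± 0.17, MIR846 by 0.77 ± 0.26, MIR408 by 1.52 ± 0.58, MIR8175 by 0.85 ± 0.34, MIR5020 by 1.36 ± 0.54 and MIR395, a sulfate-assimilation family at 0 in 2 wild-type libraries, by 2.72 ± 0.87. MIR399, MIR824, MIR858, MIR171, MIR829, MIR775 and MIR4228 fell, by log2 values of -1.21, -0.79, -1.31, -0.81, -0.80, -0.94 and -1.75. The families that act on the silencing machinery itself fell together: MIR162, against DCL1, by 0.62 ± 0.16, MIR168, against AGO1, by 0.37 ± 0.14, and MIR403, against AGO2, by 0.67 ± 0.27, with adjusted p of 0.00583, 0.0405 and 0.0436. MIR168 and MIR403 each kept the call in only 1 of 13 alternatives. MIR775 and MIR829 each kept it in 2, MIR5020 in 6, and MIR156, MIR171, MIR408, MIR846 and MIR858 each in 7. By DESeq2 11 families were higher and 7 lower. The number of called families was 11 with library sizes taken from all small RNAs and 11 without wild-type replicate I, 10 without wild-type replicate III or uvr8-6 replicate III and 15 without uvr8-6 replicate I, and MIR822, MIR396, MIR472, MIR2939, MIR167 and MIR399 passed in every alternative run.

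Read by function, the called loci were spread over several groups, each set beside the 12.9% higher and 9.90% lower of all loci. Of 12 tested phase-change loci (MIR156, MIR157, MIR172) 2 rose and none fell, with a median log2 difference of 0.51. Of 13 auxin-signalling loci (MIR160, MIR164, MIR167, MIR390, MIR393) 4 rose and none fell (median 0.06). Among 6 loci that start secondary siRNAs (MIR161, MIR173, MIR390A, MIR390B, MIR393B, MIR472A), 3 rose and none fell (median 0.23). Among 19 loci against growth-related transcription factors, 1 rose and 3 fell (median -0.37), and of the 14 MIR169 loci 1 rose and 3 fell (median -0.28). None of the 5 loci against the silencing machinery passed as single loci, and all 5 lay below 0 (median -0.49). The 4 light-regulated loci held 1 that rose and 1 that fell, the 10 young, abundant loci 2 and 2, and the 51 loci of families predicted in earlier work to respond to UV-B 6 and 4, close to the share over all loci. The copper and resistance-gene lists came down to MIR408 and MIR472A, the MYB and stomatal lists to MIR858A and MIR824A, and of the 2 nutrient loci tested MIR399B fell. The pollen locus family was too low to be tested.

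Of the 10 miRNA loci with the highest mean CPM, which is not divided by locus length, 5 differed: MIR169C, MIR396A and MIR822A fell and MIR156C and MIR8175 rose. The first of them, MIR158A, averaged 127390 ± 43760.1 CPM in uvr8-6 and 128897 ± 42888 CPM in wild type (SD, n = 3 each; log2 -0.02 ± 0.28 (SE), adjusted p = 0.989). MIR169A, MIR169B, MIR156F and MIR156A also did not pass, at log2 differences of -0.04, 0.22, 0.19 and 0.37.

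The same genotypes were also compared in the dark and at the lower dose, in other libraries. In the dark 15 of 101 loci (14.9%) passed and at 3000 µmol per m2 18 (17.8%). Of the 23 loci called at 30000, 14 were called in the dark and 15 at 3000, all in the same direction, 12 were called at all 3 doses, and 22 had the same sign at all 3. MIR472A differed by 1.73 ± 0.31 in the dark, 1.41 ± 0.31 at 3000 and 2.19 ± 0.32 at 30000, and MIR822A by -1.03 ± 0.21, -1.10 ± 0.21 and -1.29 ± 0.21. MIR390B differed by 0.61, 0.65 and 0.60, nearly the same value at each dose. MIR166B, MIR167B, MIR169C, MIR169H, MIR169N and MIR408 were called at 30000 only. That they differed more than in the dark was not shown: the test of the difference between the genotype differences called 0 of 101 loci (0%) by edgeR and 0 by DESeq2, and 9 and 7 loci had an unadjusted p under 0.05 in these fits. The 5 loci with the smallest p, none passing, were MIR169N, MIR169E, MIR166B, MIR169C and MIR5642a, all with adjusted p of at least 0.42. Against the lower dose the same test called 0 loci as well, with 2 at an unadjusted p under 0.05.

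**Figure D3:**
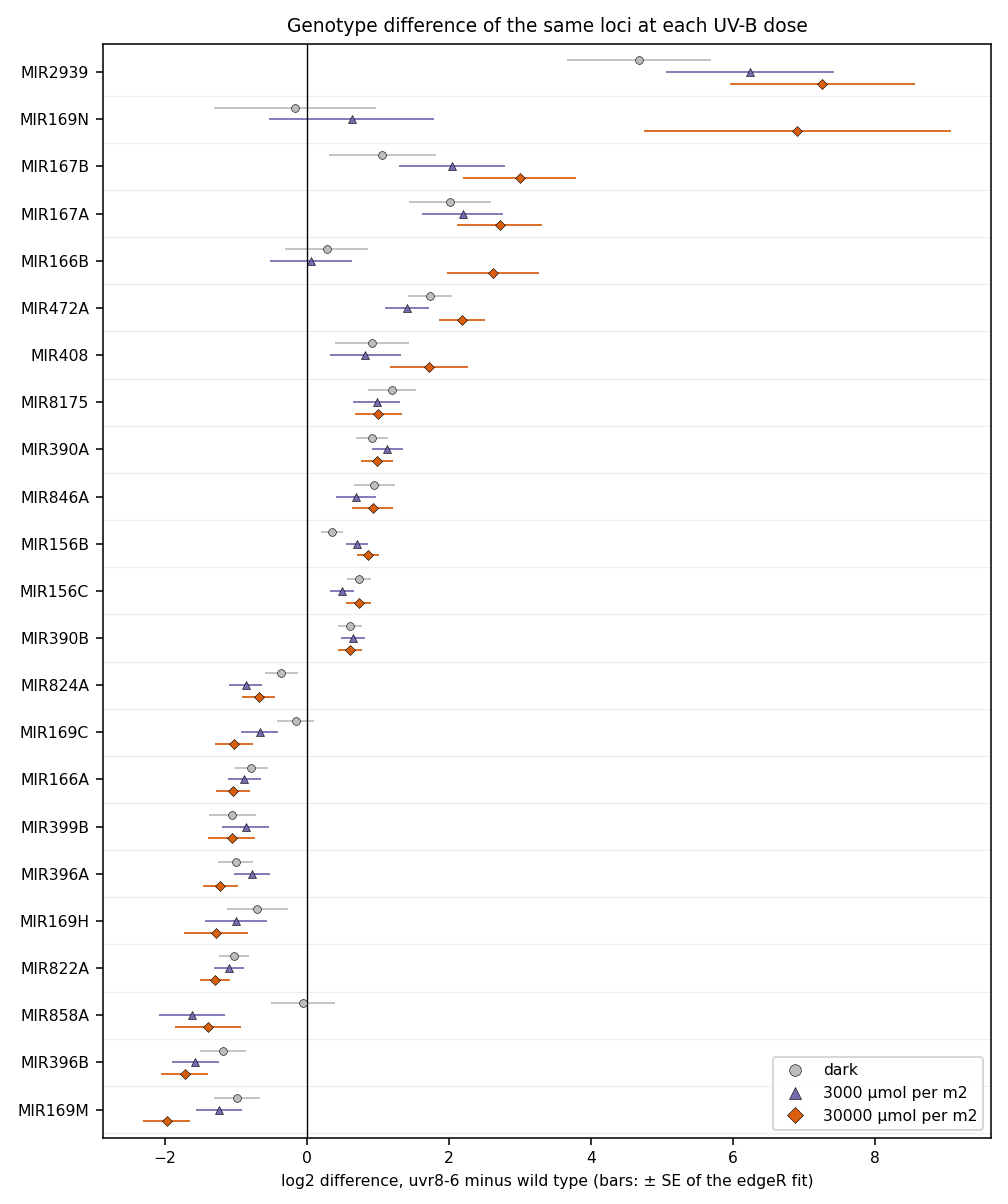
log2 difference, uvr8-6 minus wild type, of the 23 miRNA loci in the dark (circles), at 3000 (triangles) and at 30000 µmol per m2 (diamonds), with bars of 1 SE of the edgeR fit. For 22 loci all 3 points lie on the same side of 0; MIR169N is at -0.17 in the dark, and MIR166B and MIR169N have their 30000 point far from the other 2.

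Among families, 10 of 55 (18.2%) differed in the dark and 18 (32.7%) at 3000, and of the 24 called at 30000, 9 were called in the dark and 15 at 3000 in the same direction. Only MIR167, 1 of 55 families (1.82%), passed the test of the difference between 30000 and the dark. The genotype difference of MIR167 was -0.23 ± 0.19 in the dark, 0.94 ± 0.19 at 3000 and 0.97 ± 0.19 at 30000, and the change from the dark to 30000 was 1.20 ± 0.27 (adjusted p = 0.00952), and against 3000 no family passed (0%), with 6 at an unadjusted p under 0.05. The member loci had different patterns. MIR167D averaged 3095 ± 1702 CPM in uvr8-6 and 5173 ± 781 CPM in wild type at 30000, and 5261 ± 1361 CPM in uvr8-6 and 12003 ± 1218 CPM in wild type in the dark. MIR167A averaged 9920 ± 2725 CPM in uvr8-6 and 1513 ± 460.4 CPM in wild type at 30000, and 5218 ± 1848 CPM in uvr8-6 and 1268 ± 861 CPM in wild type in the dark (SD, n = 3 each). The call was lost without any 1 of 4 libraries: wild-type dark replicate I (adjusted p = 0.097) or II (adjusted p = 0.0871), wild-type 30000 replicate III (adjusted p = 0.066) or uvr8-6 30000 replicate III (adjusted p = 0.15).

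The xpf-3 libraries at the same dose allowed uvr8-6 to be compared with another genotype. uvr8-6 minus xpf-3 called 15 of 101 loci (14.9%), and xpf-3 minus wild type called none by edgeR (0%), with 8 loci at an unadjusted p under 0.05. Of the 23 loci called against wild type, 12 were also called against xpf-3, in the same direction; these comparisons share the uvr8-6 libraries. MIR472A was 1.71 ± 0.31 higher against xpf-3, MIR167A 1.96 ± 0.57 higher and MIR169M -1.74 ± 0.33. MIR8175 differed from xpf-3 by 0.34 ± 0.33 and MIR390A by 0.57 ± 0.22 (adjusted p = 0.486 and 0.0785). MIR408 did not pass against xpf-3 (adjusted p = 1). Among families, 10 of 55 (18.2%) differed from xpf-3, and all 24 called against wild type had the same sign.

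Over all 1109 small RNA loci tested, of miRNA, rRNA, snRNA, snoRNA and tRNA, 118 (10.6%) differed, 76 (6.85%) higher and 42 (3.79%) lower in uvr8-6, and 107 of the 118 did not overlap between genotypes, against 287 of all 1109 (25.9%). snoRNA loci made up 57 of the 118, with 40 higher and 17 lower of 318 tested. tRNA loci gave 15 higher and 9 lower of 481, rRNA loci 9 and 6 of 112, and snRNA loci 4 and 4 of 97. In this fit, where CPM are relative to all small RNAs, 14 miRNA loci passed, 13 of them also called in the miRNA fit with the same direction. Several loci are annotated under 2 names with the same counts, so the 76 and 42 loci correspond to 62 and 36 distinct sets of counts. Fitted on the 6 libraries alone, edgeR called 0 of 1109 loci, and 175 loci had p below 0.05 before adjustment. Why the calls were lost in this fit was not tested. edgeR called 29 loci without wild-type replicate I and 45 without wild-type replicate III. It called 44 without uvr8-6 replicate II and 58 without uvr8-6 replicate III. Of the 118 loci, 59 were also called in the dark and 39 at 3000 in the same direction, where 129 (11.6%) and 71 (6.40%) of all loci passed, and 53 were called at neither. Against xpf-3 at 30000, 76 loci (6.85%) passed, while xpf-3 minus wild type called 0 (0%) by edgeR with 69 at an unadjusted p under 0.05. The split of directions differed between fits, with 47 higher and 54 lower by RLE factors, 95 and 101 by DESeq2, and 76 and 42 as given.

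**Figure D4:**
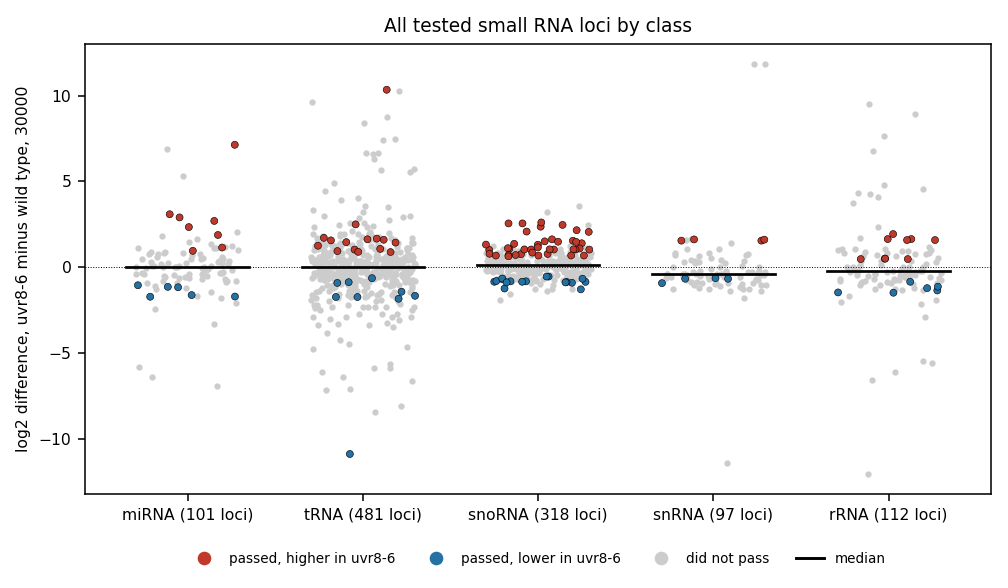
log2 difference, uvr8-6 minus wild type at 30000 µmol per m2, of the 1109 tested loci by class, each point a locus, with calls coloured by direction and a line at the class median. The medians lie between -0.42 (snRNA) and 0.13 (snoRNA), and the points beyond 5 on either side are loci at or near 0 in all libraries of 1 genotype.

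As shares of all counts, rRNA fragments held 81.3%, 82.5% and 80.9% in uvr8-6 and 72.9%, 76.3% and 80.3% in wild type, without overlap. tRNA fragments held 10.4%, 5.86% and 7.96% in uvr8-6 and 14.9%, 10.4% and 11.4% in wild type, also without overlap, though the highest uvr8-6 and the lowest wild-type share both round to 10.4%. With rRNA left out of the total, tRNA held 33.6% to 55.4% in uvr8-6 and 44.1% to 57.9% in wild type, which overlap (exact 2-sided permutation p = 0.3, adjusted p = 0.6). As shares of all counts, rRNA and tRNA each had an exact 2-sided permutation p of 0.1, the smallest that 3 against 3 libraries allow over 20 arrangements, and 0.25 adjusted over the 5 classes. The shares of miRNA (2.30% ± 0.904 in uvr8-6 and 2.96% ± 0.99 in wild type; SD, n = 3 each), snRNA (2.81% ± 0.434 and 3.77% ± 0.6) and snoRNA (5.27% ± 1.23 and 4.49% ± 1.2) overlapped, with exact permutation p of 0.4, 0.2 and 0.5. No class share can pass 0.05 in this design.

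Several fragments of plastid RNAs rose, mainly of tRNAs. Etiolated seedlings hold etioplasts, which turn into chloroplasts in light, and the plastid genome encodes its own tRNAs and rRNAs. Of 40 plastid loci tested, 10 rose and 1 fell, against 6.85% and 3.79% of all loci. Their median log2 difference was 0.33 against 0.02 over all. The 32 tRNA loci among them had a median of 0.03, with 16 above 0, and the 8 rRNA loci a median of 0.93. TRNK (ATCG00030), the plastid tRNA-Lys gene, had 1806, 3218 and 2256 CPM in uvr8-6 against 432, 448 and 412 CPM in wild type (log2 2.49 ± 0.35 (SE), adjusted p = 0.000429), the smallest adjusted p among plastid loci, with no overlap. TRNG.1 had 667, 776 and 875 CPM in uvr8-6 and 245, 269 and 216 CPM in wild type (log2 1.67 ± 0.31 (SE), adjusted p = 0.00285), and TRNL.1 had 509, 701 and 492 CPM in uvr8-6 and 217, 202 and 211 CPM in wild type (log2 1.43 ± 0.31 (SE), adjusted p = 0.0108). The 2 TRNI loci of the inverted repeat, TRNI.2 and TRNI.3, were higher by 1.63 ± 0.38 and 1.56 ± 0.37, and the 2 TRNA loci by 1.46 ± 0.33 and 1.25 ± 0.33. Counts were similar within the TRNI pair, within the TRNA pair and within the RRN5S pair. Reads may be shared within each pair, so the loci of a pair are not separate observations. TRNM, a low locus, had 25.3, 22 and 23 CPM in uvr8-6 and 13.8, 11.4 and 8.05 CPM in wild type (log2 1.07 ± 0.32 (SE), adjusted p = 0.0419). Both RRN5S loci, for the plastid 5S rRNA, rose by 1.64 ± 0.50 and 1.58 ± 0.50, with uvr8-6 replicate III highest at 1992 and 2028 CPM against 566 to 646 CPM in the other uvr8-6 libraries and 298 to 439 CPM in wild type. TRNT.1 fell, with 17.4, 9.77 and 23 CPM in uvr8-6 and 70.9, 54.9 and 42.9 CPM in wild type (log2 -1.73 ± 0.44 (SE), adjusted p = 0.0221). The plastid 23S loci, at log2 differences of 1.02 and 1.01, and the 16S loci, at -0.28 and -0.21, did not pass.

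Most of the plastid tRNA loci that rose have a symbol under which an intron-bearing gene is annotated, a grouping made after the values were seen. As counted in TAIR10.1, an intron interrupts at least 1 gene of 6 plastid tRNA symbols: trnK, both trnA genes, 2 of 4 trnI, 1 of 2 trnG, 1 of 4 trnL and 1 of 2 trnV. These gene counts may be incomplete. The tested loci include TRNV.1, TRNV.2 and TRNV.3 for 2 counted trnV genes, and TRNT.1 and TRNT.2 for 1 counted trnT gene. The 13 tested loci with these symbols included 7 of the 8 plastid tRNA loci that rose, and their median log2 difference was 1.25. Among the 7 are the TRNA pair and the TRNI pair, which may share reads, so 7 overstates the number of distinct tRNAs. The 19 tested loci with the other 14 symbols included TRNM, which rose, and TRNT.1, which fell, and had a median of -0.34. Which of the numbered trnI, trnG, trnL and trnV loci carry the intron could not be read from the annotation used, since it names them without numbers. Whether the reads lie in exons or introns cannot be seen in counts per locus. In the dark TRNK differed by 1.19 ± 0.34 (adjusted p = 0.0265), and the 6 other called loci of these symbols by -0.12 to 0.48, none passing. The difference between the doses itself was not shown for any small RNA locus: edgeR called 0 of 1109 (0%), with 62 at an unadjusted p under 0.05, while DESeq2 called 32. Without wild-type replicate III the plastid loci that rose numbered 3, without wild-type replicate I or uvr8-6 replicate III they numbered 6, and in the fit of the 6 libraries alone 0. The fitted level of xpf-3 at the same dose lay between those of uvr8-6 and wild type at these 7 loci, in comparisons that share the 30000 libraries. uvr8-6 minus xpf-3 passed at TRNK (1.28 ± 0.34, adjusted p = 0.0316) and TRNG.1 (1.02 ± 0.30, adjusted p = 0.0462) but not at the other 5, with 0.25 ± 0.37 at TRNI.2 and 0.29 ± 0.37 at TRNI.3 (adjusted p = 0.837 and 0.792). xpf-3 minus wild type was 1.21 ± 0.34 at TRNK, 1.37 ± 0.38 at TRNI.2, 1.27 ± 0.37 at TRNI.3 and 0.91 ± 0.33 at TRNA.1, none passing. Within a genotype, 30000 minus dark at TRNK was 0.12 ± 0.33 in uvr8-6 and -1.19 ± 0.34 in wild type (adjusted p = 0.966 and 0.082). Over the 7 loci it was -0.21 to 0.45 in uvr8-6 and -1.27 to -1.01 in wild type, none passing. Plastid loci together held 3.64%, 1.72% and 3.38% of all counts in uvr8-6 and 2.38%, 1.92% and 2.06% in wild type.

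**Figure D5:**
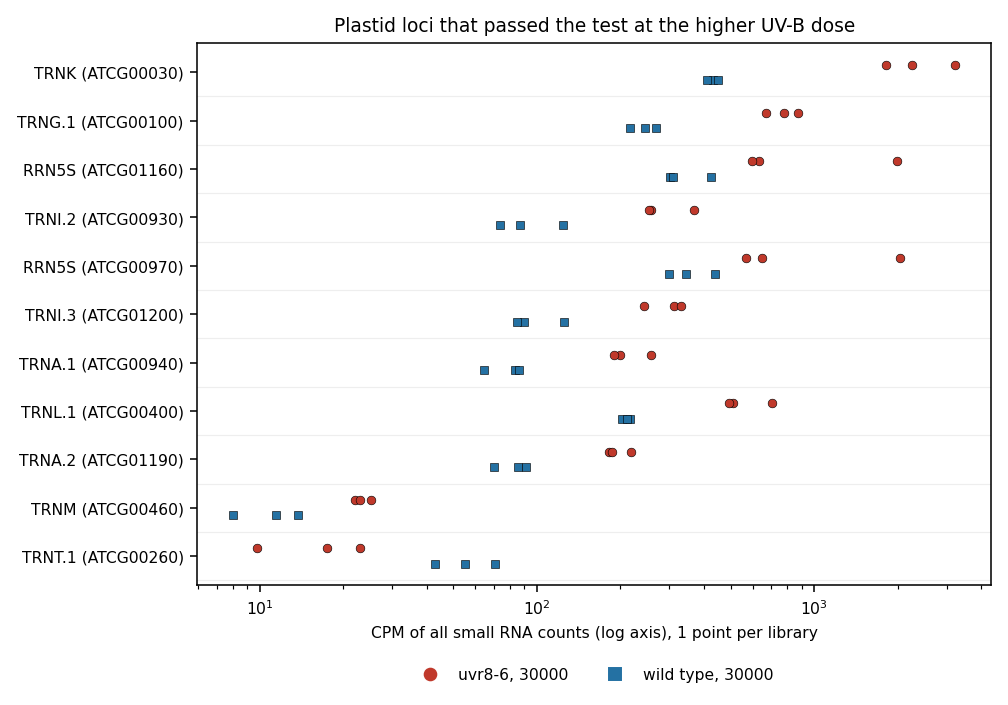
CPM of all small RNA counts, on a log axis, for the 11 plastid loci that passed the test at 30000 µmol per m2, with the 3 uvr8-6 libraries as circles above the 3 wild-type libraries as squares. TRNK separates most widely, with 1806 to 3218 CPM in uvr8-6 and 412 to 448 CPM in wild type, and TRNT.1 is the locus that is lower in uvr8-6.

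snoRNAs guide the methylation and pseudouridylation of rRNA, and their loci were the class with the largest number of calls. Of 318 snoRNA loci tested 40 rose and 17 fell, beside shares of 6.85% higher and 3.79% lower over all small RNA loci. These calls correspond to 33 and 12 distinct sets of counts. U3D (AT5G54075), a copy of the U3 snoRNA that acts in cleaving pre-rRNA, had 124, 70.9 and 118 CPM in uvr8-6 against 16.7, 12.6 and 24.1 CPM in wild type (log2 2.55 ± 0.59 (SE), adjusted p = 0.0138). The locus snoR121 had 4592, 17414 and 5608 CPM in uvr8-6 and 1186, 2167 and 1649 CPM in wild type (log2 2.46 ± 0.42 (SE), adjusted p = 0.00142), with replicate II more than 3 times as high as either other uvr8-6 library. AT2G08760 had 198, 325 and 233 CPM in uvr8-6 and 36.4, 55.5 and 77.8 CPM in wild type (log2 2.16 ± 0.28 (SE), adjusted p = 0.000331), and the snoR77Y locus ENSRNA049494636 had 18, 136 and 26.1 CPM in uvr8-6 and 10.8, 15.4 and 8.05 CPM in wild type (log2 2.36 ± 0.68 (SE), adjusted p = 0.0392). At 27 of the 40 snoRNA loci that rose, replicate II was the highest uvr8-6 library, and without it 11 snoRNA loci were higher and 6 lower. Among those that fell, AT4G08125 had 21.6, 9.77 and 13.8 CPM in uvr8-6 and 27.6, 41.2 and 42.9 CPM in wild type (log2 -1.29 ± 0.35 (SE), adjusted p = 0.0302), AT1G07393 had 41.5, 30.5 and 36.9 CPM in uvr8-6 and 87.6, 91.5 and 79.1 CPM in wild type (log2 -1.24 ± 0.27 (SE), adjusted p = 0.0116), and AT5G02305 and AT3G58196 differed by -0.91 ± 0.20 and -0.88 ± 0.27. Without wild-type replicate I the counts were 10 higher and 5 lower, against 40 and 17 with all libraries, without wild-type replicate III 19 and 11, without wild-type replicate II 31 and 4, and without uvr8-6 replicate III 25 and 5.

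The 2 kinds of spliceosomal snRNA with calls differed in opposite directions. Their counts stand beside shares of 6.85% higher and 3.79% lower over all small RNA loci. Of 18 U6 loci tested 4 rose, at 2 distinct sets of counts: U6.6 (AT4G09135) had 488, 1179 and 479 CPM in uvr8-6 and 181, 325 and 227 CPM in wild type (log2 1.55 ± 0.39 (SE), adjusted p = 0.0196), and U6.5 (AT4G08755) rose by 1.61 ± 0.45. Of 25 U2 loci 4 fell, at 3 distinct sets of counts. Among them, ENSRNA049493787 had 1109, 947 and 739 CPM in uvr8-6 and 1829, 1377 and 2112 CPM in wild type (log2 -0.93 ± 0.19 (SE), adjusted p = 0.00598). U2.6 (AT3G56705) differed by a log2 value of -0.67 ± 0.16. U1, U4 and U5 loci gave no call among 19, 14 and 18 tested, and their medians lay between -0.50 and -0.67. In rRNA, 6 of 90 non-plastid 5S loci fell and 1 rose, while 10.6% of all small RNA loci were called. ENSRNA049494427 had 62.5, 46.4 and 114 CPM in uvr8-6 and 235, 201 and 181 CPM in wild type (log2 -1.47 ± 0.31 (SE), adjusted p = 0.00889), and ENSRNA049494303, ENSRNA049494225, ENSRNA049494421 and ENSRNA049493425 fell by 1.49, 1.35, 1.22 and 1.13 on the log2 scale. The 5S locus that rose, ENSRNA049493392, had 7523, 1096 and 1319 CPM in uvr8-6 and 693, 967 and 946 CPM in wild type (log2 1.93 ± 0.50 (SE), adjusted p = 0.0244), and only uvr8-6 replicate I is far above the rest. The 5.8S rRNA loci, highly abundant, rose by 0.47 to 0.50, as at AT3G41979 with 80856, 95242 and 102681 CPM in uvr8-6 and 54058, 70596 and 72351 CPM in wild type.

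Among nuclear tRNA loci the largest called differences were all-or-none. AT2G38030, a tRNA-Glu gene, had 0 counts in all 3 uvr8-6 libraries against 160, 222 and 211 counts in wild type, at least 213-fold lower against the limit of 3 counts over the uvr8-6 libraries (adjusted p = 0.0412). It was at 0 in all 9 uvr8-6 libraries of the series, in 3 of the 9 xpf-3 libraries and in none of the 9 wild-type libraries. AT2G33650, a tRNA-Asp gene, had 401, 62 and 93 counts in uvr8-6 and 0 in each wild-type library, at least 172-fold higher (adjusted p = 0.0419), but this locus was also at 0 in 1 library each of uvr8-6 at 3000, xpf-3 at 3000, xpf-3 at 30000 and wild type at 3000, and had 133 to 201 counts in the dark wild type. No other tRNA gene in TAIR10.1 has the identical sequence of either, but 26 genes are annotated as tRNA-Glu and 28 as tRNA-Asp, and how reads were divided among them is uncertain. Leaving out any 1 of the 6 libraries ended both calls (highest adjusted p over the alternatives 0.125 for AT2G38030 and 0.146 for AT2G33650). AT2G33950, a tRNA-Pro gene, had 89, 133 and 72.2 CPM in uvr8-6 and 299, 245 and 389 CPM in wild type (log2 -1.67 ± 0.42 (SE), adjusted p = 0.0208), and the tRNA-Pro locus ENSRNA049492583 had 78.8, 72.1 and 83.7 CPM in uvr8-6 and 238, 153 and 241 CPM in wild type (log2 -1.43 ± 0.25 (SE), adjusted p = 0.00166). In the dark the fitted genotype difference of AT2G33950 was more negative than at 30000. The change from the dark to 30000, 2.46 ± 0.60 (SE), did not pass (edgeR interaction test, adjusted p = 0.222). ENSRNA049492471, also tRNA-Pro, fell by 1.84 ± 0.56 on the log2 scale. Over 38 tested tRNA-Pro loci 3 fell and none rose, with a median of -1.21, while 10.6% of all small RNA loci were called. ENSRNA049492469, a tRNA-Leu locus, rose by 1.71 ± 0.50, with 27.1, 17.1 and 73 CPM in uvr8-6 and 7.87, 14.3 and 13.4 CPM in wild type, where uvr8-6 replicate III is far above the other libraries.

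Among the small RNA loci named outside the miRNAs, the call of TRNK, TRNG.1, TRNL.1, snoR121, AT2G08760, AT1G07393, AT5G02305, ENSRNA049493787 and ENSRNA049492583 passed with each library left out in turn. TRNI.2, TRNI.3 and TRNA.1 lost it without wild-type replicate III and no other library, and U3D and ENSRNA049494427 without wild-type replicate I and no other. TRNM and AT3G58196 lost it without any 1 of the 6 libraries, the RRN5S loci without any 1 of the wild-type libraries or uvr8-6 replicate III, and ENSRNA049493392 lost it without uvr8-6 replicate I or wild-type replicate I or III (highest adjusted p over its alternatives 0.34). The U6 loci U6.5 and U6.6 lost the call without wild-type replicate I or III or uvr8-6 replicate II, and TRNT.1 without wild-type replicate I or uvr8-6 replicate II. TRNA.2, U2.6 (AT3G56705), AT2G33950, AT4G08125, ENSRNA049492469, ENSRNA049492471, ENSRNA049493425, ENSRNA049494225, ENSRNA049494303, ENSRNA049494421 and ENSRNA049494636 each lost it without any 1 of at least 2 libraries.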

How the data were processed

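Small RNA libraries were made per the labels' protocols from excised hypocotyls (Zymo Direct-zol RNA, Clontech SMARTer smRNA kit). FastQC and cutadapt are named in the submitters' processing notes; no source used here gives the aligner, counter, genome build or handling of multi-mapping reads. The values used are the raw read counts per annotated locus as deposited by the authors, for 1 table of miRNA precursors and 1 of all small RNAs; 272 columns of the authors' normalized sheets were not used. Members and lists were chosen with earlier results of these data known.

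Counts were fitted in edgeR 4.0.16 (R 4.3.3) with TMM factors, the filterByExpr filter (min.count 10) and the quasi-likelihood F-test over all 27 libraries in 9 groups, so that the spread is shared (18 residual degrees of freedom). A call is a Benjamini-Hochberg adjusted p under 0.05 over all loci of a table, and SE is the log2 difference over the square root of F. Families sum precursors by family number. Named were called loci without overlap, the 10 most abundant miRNA loci, called list members and the top and bottom called loci of each class; other loci named were chosen after their values were seen. On simulated counts for uvr8-6 minus wild type at the higher dose, the test recovered 50% of 10 miRNA loci changed by log2 1. Of 10 others changed by log2 2 in the same run it recovered 90%, with 0 wrong signs at either size and 0 false calls in the run. Of the 1109 small RNA loci, 100 were changed at each size in 1 run. The test recovered 12% at log2 1 and 51% at log2 2. The wrong sign was seen at 12 and 6 of these loci, and false calls numbered 2 in the whole run. A locus that did not pass may therefore still differ. Names and mature sequences come from RefSeq TAIR10.1, with no coordinates. Replicate numbers were not shown to pair libraries. Alternatives were RLE factors, DESeq2 1.42.0, no filter, other library sizes, a replicate block, only the groups compared, and each library left out.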

Additional observations from a re-analysis of the deposited data

Results flagged for a closer look

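The MIR167 family is listed here because its genotype difference at 30000 µmol per m2 differed from that in the dark. uvr8-6 minus wild type changed by 1.20 ± 0.27 (SE) on the log2 scale (edgeR interaction test, adjusted p = 0.00952 over 55 families). The contrast held 12 libraries, within a fit of 27. Between 3000 and 30000 it changed by 0.03 ± 0.27. The call was lost with only the groups compared (adjusted p = 0.0761) and without any 1 of 4 libraries (adjusted p of 0.066 to 0.15). In uvr8-6 the family averaged 12642 ± 668 CPM in the dark, 12739 ± 1854 CPM at 3000 and 13386 ± 3025 CPM at 30000. In wild type it averaged 14809 ± 2097 CPM in the dark, 6628 ± 1049 CPM at 3000 and 6822 ± 846 CPM at 30000 (SD, n = 3 each). xpf-3 had 12150.0 ± 2188 CPM in the dark, 6876 ± 1113 CPM at 3000 and 9050.3 ± 1663 CPM at 30000. At 30000, every uvr8-6 library lay above every wild-type library. In the dark, every uvr8-6 library of MIR167D was lower than every wild-type library. No single MIR167 locus passed the interaction test.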

How the results depend on the processing

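No call reversed direction among the loci and families named that passed the test. The 23 called miRNA loci became 15 to 29 with 1 library left out, and 12 kept their call in every alternative. The 118 called small RNA loci became 196 by DESeq2, 56 with no low-count filter, 0 with only the groups compared, and 29 to 116 with 1 library left out. The 24 called families became 13 with no filter, 11 with library sizes of all small RNAs, 12 with only the groups compared, and 10 to 22 with 1 library left out; 6 kept their call in every alternative. For the genotype difference at 30000 minus that in the dark, calls among small RNA loci were 0, but 32 by DESeq2 and 1 with only the groups compared. Among families the 1 call became 2 with no filter, 0 with only the groups compared, and 0 to 2 with 1 library left out. The alternatives with loci of the same counts kept once, with library sizes of the miRNA locus table, and those of the families' interaction and of the plastid and snoRNA counts were chosen after seeing the data; the first gave 83 calls. The cause of these shifts was not tested.

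Uncalled abundant loci changed sign. MIR158A (-0.02 as given) was 0.0693 by RLE factors, 0.0692 by DESeq2, 0.0610 with no filter, 0.0304 with library sizes of all small RNAs, 0.0945 with only the groups compared, and -0.262 to 0.237 with 1 library left out. MIR169A (-0.04 as given) was 0.0653, 0.0652, 0.0257, 0.0869 and 0.113 in the same settings, and -0.232 to 0.212 with 1 left out, and MIR169B -0.0513 to 0.617. The median log2 difference of miRNA loci was -0.13 with TMM, -0.01 with RLE factors and 0.02 with library sizes of all small RNAs.

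Replicate numbers did not pair libraries (correlations of deviations of -0.12 to 0.06). With a replicate block, calls numbered 27 miRNA loci, 112 small RNA loci and 22 families, and the interaction tests 0, 0 and 1.

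Precision is limited by depth, with 15790 to 52915 miRNA counts per library, by 3 libraries a group, and by loci that share a mature strand.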
